A study of Locusta migratoria with 12 samples.

Results

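The fat body of adult female migratory locusts (Locusta migratoria) was compared at 2 ages, the day of adult eclosion (day 0) and day 2 after it. Eclosion is the moult from the last nymph to the adult. The comparison took 6 of the 12 small RNA libraries of the study, 3 from each age, and the other 6 libraries came from days 4 and 6. All animals were females sampled by age alone, and the labels give no treatment, genotype, strain or mated state, nor whether a library held 1 animal or several. The labels also leave unsaid whether the 3 libraries of an age are separate animals, so the p-values below speak only of how far these libraries vary, part of which may be technical.

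The insect fat body stores fat, glycogen and protein and does much of the work of a liver. In adult female locusts it prepares, under juvenile hormone from the corpora allata, to make the yolk protein vitellogenin, and the first days after eclosion are the time of that preparation. A microRNA (miRNA) is a short RNA that pairs with messenger RNAs, mainly through the bases near its 5′ end known as the seed, and lowers their stability or translation. A hairpin precursor can give a mature miRNA from each of its arms, named 5p and 3p.

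The values are read counts per mature miRNA, and rows of different species that counted the same reads were first joined under an arthropod name, as the comparison requires. This gave 101 miRNAs, 80 with an arthropod name and 21 without, which together held between 384575 and 2296583 counts per library. Some of these are minor forms of another miRNA and keep the species prefix of their name. Levels are given as normalised CPM, that is, read counts put on the same scale by TMM factors, and a change is the log2 of day 2 over day 0. A miRNA was called when the edgeR quasi-likelihood test gave a Benjamini-Hochberg adjusted p below 0.05. An increase or decrease in CPM is relative to the other miRNAs of a library, and in a whole tissue fewer cells of a type and less RNA per cell cannot be told apart.

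Day 0 replicate 1 stood apart from every other library. It was the smallest, with 384575 counts, where the other libraries of that age held 2174527 and 1857283. Its median correlation with the other libraries, on log2 CPM over miRNAs, was 0.672, against 0.949 to 0.984 for the other 11. It held 1919 counts of miRNAs that are named in moths and butterflies alone, such as mse-miR-2763 with 598 counts and bmo-miR-2766-3p with 399, where the other 11 libraries held between 0 and 10. It also held forms of shared miRNAs that carry only a silkworm or other lepidopteran name, among them 616 counts of bmo-miR-31-5p, against 0 to 2 elsewhere. Its level lay more than 2-fold above the mean of the other day 0 libraries for 25 of 90 tested miRNAs and more than 2-fold below it for 33. The median SD of log2 CPM was 0.94 over the 3 day 0 libraries and 0.29 over the 3 day 2 libraries. Each call is therefore stated for the fit with this library and for the fit without it. Its part in the results was measured only in that way.

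No set of miRNAs that marks fat body was listed, so the tissue label was checked against miRNAs of other tissues. The ovary and embryo miRNAs miR-309, miR-286 and miR-318 and the mosquito midgut miRNA miR-1174 were at 0 counts in all 6 libraries. The nerve cell miRNAs miR-124 and miR-137 were scarce, and neither had enough counts to be tested. miR-124 had 1, 15 and 3 counts at day 0 and 0 in all 3 day 2 libraries. Those 0 counts allow up to 1.31, 4.29 and 3.04 CPM before scaling, so a decrease of miR-124 cannot be told from library depth. miR-137 had 5, 28 and 16 counts at day 0 and 0, 1 and 1 at day 2. The other nerve cell miRNA listed, miR-7-5p, was far more abundant and overlapped between the ages. It was at 646, 580 and 505 CPM at day 0 and 543, 553 and 740 CPM at day 2. The remaining ovary miRNA, miR-989, had 113 counts in day 0 replicate 1 and 0 in the other 5. Its most abundant row carries a moth name, mse-miR-989, so these counts cannot be read as ovary of the locust. The muscle miRNAs miR-1-3p and miR-133-3p, 2 of 3 listed, summed to 362, 3304 and 1795 CPM at day 0 and 510, 1153 and 723 CPM at day 2. Both arms of miR-281, abundant in the midgut of mosquitoes, summed to 644, 1529 and 117 CPM at day 0 and 1108, 698 and 192 CPM at day 2. The gut sums overlapped between the ages. The muscle sums overlapped only through day 0 replicate 1, and without it both day 0 libraries lay above all day 2 libraries. Outside day 0 replicate 1 the muscle sums were mostly miR-1-3p. miR-133-3p was at 182, 35.1 and 29.8 CPM at day 0 and 33.6, 219 and 46.4 CPM at day 2. Without day 0 replicate 1 its log2 difference was 1.67, opposite to that of miR-1-3p, and not called. Only day 2 replicate 2 then lay far above day 0. Of the 6 libraries it also held the highest levels of the vertebrate-named aca-miR-1a-3p and cgr-miR-378-3p, at 64.4 and 87.5 CPM. A shared source was not tested. The scarce miR-137 and, without day 0 replicate 1, miR-1-3p were thus lower at day 2, as were the miRNAs called lower below. miR-7-5p and miR-133-3p overlapped between the ages. The part of miR-137 and miR-1-3p in the decreases below was not tested.

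Between day 0 and day 2 more miRNAs were called lower than higher in both fits, with and without day 0 replicate 1. With all libraries, 11 of 90 tested miRNAs were lower at day 2 (12.2%) and 4 were higher (4.44%). Without day 0 replicate 1, 12 of 91 were lower (13.2%) and 9 higher (9.89%). All 11 and all 12 decreases were of miRNAs with an arthropod name (15.9% and 17.1% of those tested), and of the increases 1 and 4 were (1.45% and 5.71%). The 2 fits shared 14 calls, 10 lower and 4 higher. The decreases called in both fits were those of miR-31-5p, of miR-100-5p and miR-125-5p in the let-7 complex, of the main forms of miR-263a and miR-263b, of miR-278-3p, of both arms of miR-10, of miR-92a-3p and of a minor form of miR-8-3p. The increases shared by both fits were miR-995-3p and 3 scarce miRNAs without an arthropod name.

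These calls differed in how firmly they stood. With all libraries, leaving out day 2 replicate 3 left 0 calls by edgeR, with a lowest adjusted p of 0.0504 and 22 miRNAs at an unadjusted p below 0.05. A fit of the 6 libraries of days 0 and 2 alone also gave 0 calls, with a lowest edgeR adjusted p of 0.0548. Leaving out day 2 replicate 1 gave 3 lower and 3 higher, leaving out day 2 replicate 2 gave 6 lower and 1 higher, and leaving out day 0 replicate 2 gave 19 lower and 9 higher. In the fit of 11 libraries 6 miRNAs were called whichever further library of the 2 ages was left out, namely miR-31-5p, miR-100-5p, miR-278-3p, miR-995-3p, miR-276b-3p and aae-miR-8-3p, which is that minor form. A further 7 lost the call with only 1 of these left out, day 0 replicate 2 for efu-miR-9341 and day 0 replicate 3 for miR-125-5p, miR-2765-5p, both arms of miR-10 and both main forms of miR-263. Leaving out day 0 replicate 2 or 3 as well left day 0 with 1 library, assumed to vary like the other ages, so those fits are a weak check. Of 11 other settings of the fit with all libraries, the replicate block and other filters or ways of joining rows among them, miR-31-5p, miR-100-5p, miR-125-5p, miR-263a-5p, miR-278-3p and miR-995-3p were called in 10, miR-92a-3p in 8, miR-263b-5p in 6, ame-miR-125 in 4 and each arm of miR-10 in 3. The libraries of the 2 ages did not overlap for 14 miRNAs with day 2 above and 14 with day 2 below (15.6% of the 90 each), and for 21 (23.3%) and 22 (24.4%) without day 0 replicate 1.

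**Figure D1:**
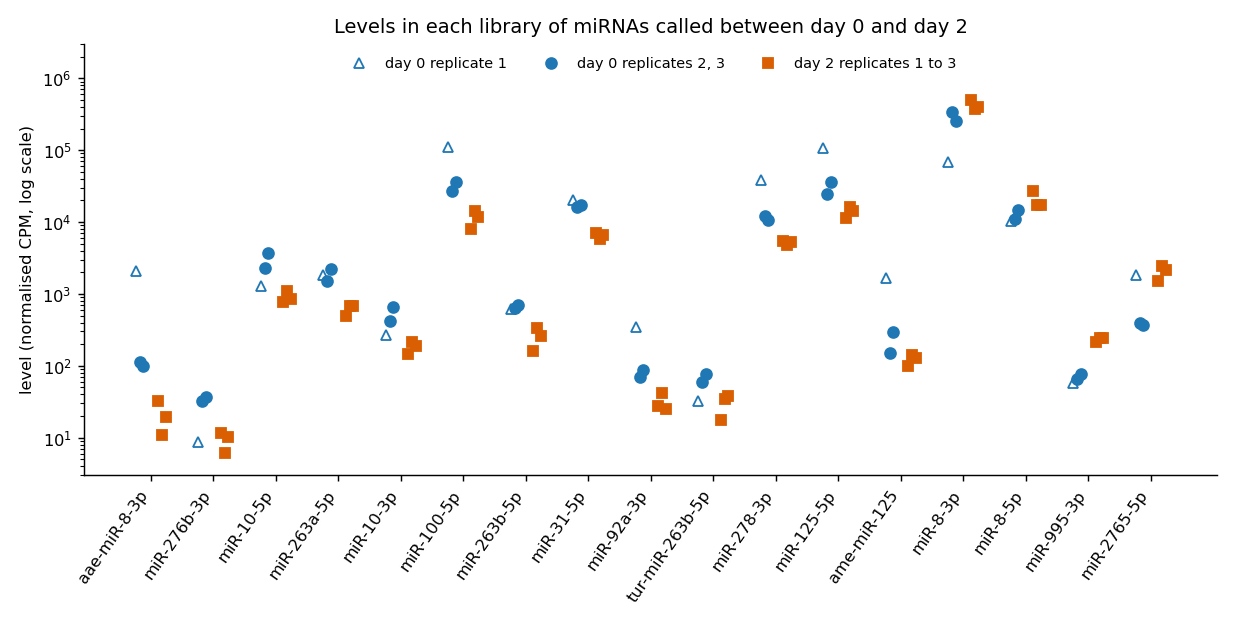
Normalised CPM on a log axis in each of the 6 libraries for the 17 miRNAs with an arthropod name that were called with all libraries or without day 0 replicate 1. Open triangles are day 0 replicate 1, filled circles day 0 replicates 2 and 3, and squares the day 2 libraries. The triangle lies with the circles for miR-31-5p, miR-995-3p and both main forms of miR-263 and far above them for miR-100-5p, miR-125-5p and miR-278-3p.

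miR-31-5p, which acts in segmentation of the fly embryo, had the lowest adjusted p with all libraries. Its level was 20209, 16068 and 17425 CPM in the day 0 libraries and 6961, 5719 and 6507 CPM at day 2. All 3 day 0 libraries lay more than 2-fold above every day 2 library, and day 0 replicate 1 was close to the other 2. The log2 change was -1.48 ± 0.27 (SE; edgeR adjusted p = 0.0106), and -1.33 ± 0.21 (edgeR adjusted p = 0.00571) without day 0 replicate 1. The 616 counts under the lepidopteran name in day 0 replicate 1 are a separate row from the 9327 counts behind its value here.

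The let-7 complex is a group of miRNAs, let-7, miR-100 and miR-125, often made from a common transcript in insects. In flies let-7 and miR-125 time the passage from juvenile to adult, and the transcript answers to the moulting hormone. Of its 4 measured forms 3 fell with all libraries, where 12.2% of all miRNAs tested were lower, and 2 without day 0 replicate 1, where 13.2% were. Among the 3 was a minor form of miR-125 whose call rested on that library. The 4 forms had median log2 differences of -2.18 and -0.92, against -0.07 and -0.04 over all miRNAs tested.

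miR-100-5p was at 111239, 26928 and 36417 CPM at day 0 and at 8037, 14380 and 11660 CPM at day 2. The ages did not overlap, but day 0 replicate 1 was more than 3 times as high as the others of its age. The log2 change was -2.36 ± 0.48 (SE; edgeR adjusted p = 0.0107) with it and -1.41 ± 0.24 (edgeR adjusted p = 0.00571) without it. miR-125-5p followed the same course, with 107534, 24370 and 36063 CPM at day 0 and 11526, 16075 and 14104 CPM at day 2. Its log2 change was -2.01 ± 0.46 (SE; edgeR adjusted p = 0.0127), and -1.05 ± 0.21 (edgeR adjusted p = 0.00652) without day 0 replicate 1. Both therefore fell in both fits, and the size of the fall depended on that library.

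A minor form of miR-125 that carries a honey bee name, ame-miR-125, had 1690 CPM in day 0 replicate 1, 153 and 300 CPM in the other day 0 libraries and 100, 143 and 130 CPM at day 2. Its call rested on day 0 replicate 1, since the log2 change went from -2.52 ± 0.75 (SE; edgeR adjusted p = 0.0409) to -0.78 ± 0.44 (edgeR adjusted p = 0.237) without it. let-7-5p, the third member, was at 28287, 17379 and 19412 CPM at day 0 and 16872, 15683 and 14032 CPM at day 2. The day 2 libraries lay below all day 0 libraries, but let-7-5p was not called, with a log2 difference of -0.48 (edgeR adjusted p = 0.188) and of -0.19 without day 0 replicate 1.

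Ratios between members within a library do not depend on how libraries are scaled. The log2 ratio of miR-100-5p to let-7-5p was 1.98, 0.63 and 0.91 in the day 0 libraries and -1.07, -0.13 and -0.27 at day 2, a difference in means of -1.66. Every day 0 library thus held more counts of miR-100-5p than of let-7-5p, and every day 2 library fewer. The log2 ratio of miR-125-5p to let-7-5p was 1.93, 0.49 and 0.89 at day 0 and -0.55, 0.04 and 0.01 at day 2, a difference of -1.27. miR-100-5p and miR-125-5p were nearly equal at day 0, with log2 ratios of 0.05, 0.14 and 0.01, and at day 2 miR-100-5p was the lower, with -0.52, -0.16 and -0.27. The 3 differences remained without day 0 replicate 1, at -1.26, -0.86 and -0.40. In each of the 3 ratios the ages did not overlap. These ratios were chosen after their values were seen, so they are given as a description with no test.

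**Figure D2:**
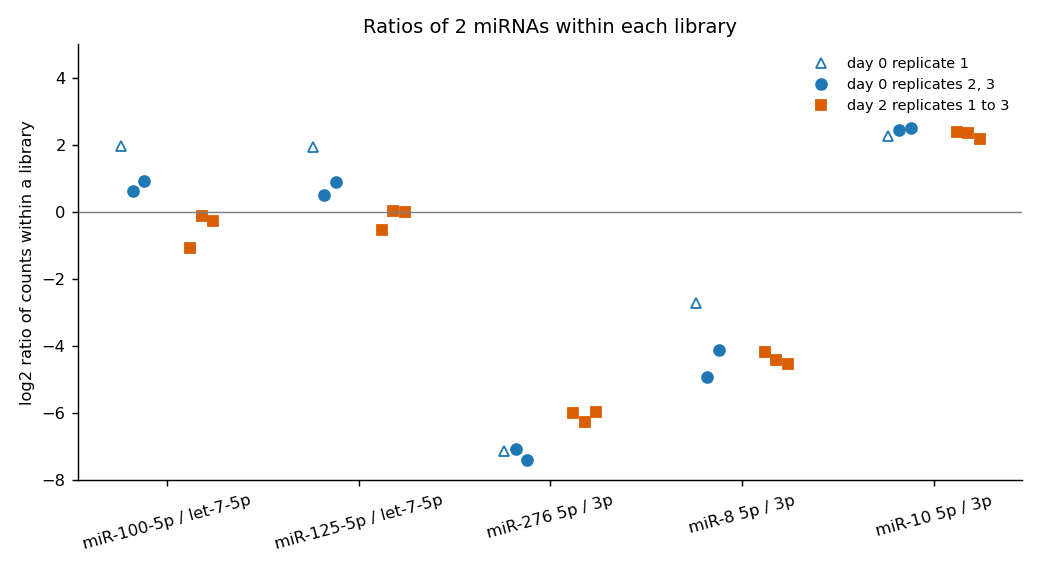
Log2 ratio of the counts of 2 miRNAs within each library, for 3 hairpins whose arms both held at least 100 counts in each of the 6 libraries and for miR-100-5p and miR-125-5p over let-7-5p. Open triangles are day 0 replicate 1, circles the other day 0 libraries and squares day 2. At day 2 both let-7 ratios lay below, and the miR-276 ratio of arms above, every day 0 library, while the miR-8 and miR-10 ratios overlapped between ages.

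miR-263a and miR-263b protect sense organ cells from death in flies, and in locust nymphs miR-263 has been tied to chitin breakdown at the moult. Of 3 measured forms 2 fell with all libraries and all 3 without day 0 replicate 1, beside 12.2% and 13.2% lower over all miRNAs tested, with medians of -1.39 and -1.38. miR-263a-5p stood at 1861, 1527 and 2194 CPM at day 0 and 496, 678 and 675 CPM at day 2. miR-263b-5p stood at 618, 642 and 711 CPM at day 0 and 158, 336 and 257 CPM at day 2. For both, day 0 replicate 1 lay within the other day 0 libraries or just below them, and the ages did not overlap. The log2 change of miR-263a-5p was -1.59 ± 0.36 (SE; edgeR adjusted p = 0.0127), and -1.53 ± 0.33 (edgeR adjusted p = 0.00716) without that library. For miR-263b-5p it was -1.39 ± 0.36 (SE; edgeR adjusted p = 0.0221), and -1.38 ± 0.34 (edgeR adjusted p = 0.0146) without it. A scarce form with a mite name, tur-miR-263b-5p, went from 32.5, 58.6 and 77.8 CPM to 17.5, 34 and 38.1 CPM, and was called only without day 0 replicate 1 (log2 change -1.14 ± 0.36, edgeR adjusted p = 0.0429). That call stood in 2 of 6 other settings of the fit. With miR-71, also tied to chitin in locust moulting and called in neither fit, the moulting list had 2 of 5 forms lower with all libraries (12.2% over all miRNAs tested) and 3 without day 0 replicate 1 (13.2%), all of them forms of miR-263.

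miR-10 lies among the Hox genes, which set identity along the body axis. Both arms fell in both fits, though with all libraries the call of each was lost in 8 of 11 other settings and in 4 of 6 fits with a library left out. miR-10-5p was at 1274, 2290 and 3749 CPM at day 0 and 768, 1105 and 862 CPM at day 2, and miR-10-3p was at 264, 421 and 668 CPM and then 147, 215 and 190 CPM. Here day 0 replicate 1 was the lowest day 0 library for each arm, yet above all day 2 libraries. The log2 change of the 5p arm was -1.42 ± 0.43 (SE; edgeR adjusted p = 0.0409), and -1.65 ± 0.35 (edgeR adjusted p = 0.00716) without it. That of the 3p arm was -1.30 ± 0.40 (SE; edgeR adjusted p = 0.0478), and -1.49 ± 0.33 (edgeR adjusted p = 0.00716) without it. The log2 ratio of 5p to 3p was 2.27, 2.44 and 2.49 at day 0 and 2.39, 2.36 and 2.18 at day 2, a difference of -0.09 with overlap (exact permutation p = 0.4). The other measured miRNA of the Hox list, miR-iab-4-5p, was not called in either fit.

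miR-278 acts on insulin response and energy balance in the fat of flies, and in locusts it has been reported to target Kr-h1, a gene switched on by juvenile hormone. miR-278-3p had 38072, 12031 and 10805 CPM at day 0 and 5494, 4818 and 5196 CPM at day 2. The 3 day 2 libraries were close together, and all day 0 libraries lay above them. Day 0 replicate 1 was more than 3 times the others of its age, and the log2 change moved from -1.97 ± 0.45 (SE; edgeR adjusted p = 0.0127) to -1.09 ± 0.23 (edgeR adjusted p = 0.00716) without it. It was the only called form among 6 measured on the list of reported Kr-h1 regulators, which also holds let-7-5p and the miR-2 family. A count of 1 in 6 is close to the 16.7% (23.1% without day 0 replicate 1) called in either direction over all miRNAs tested, and the list's medians were -0.30 and -0.04.

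miR-92a-3p, of a family that in flies acts in nerve stem cells, fell from 342, 70.6 and 87.4 CPM to 27.8, 41.3 and 25.1 CPM. The log2 change was -2.39 ± 0.63 (SE; edgeR adjusted p = 0.0221), and -1.27 ± 0.40 (edgeR adjusted p = 0.0429) without day 0 replicate 1, which was more than 3 times the other day 0 libraries. Without that library the call stood in only 2 of 6 other settings and in 1 of 5 fits with a further library left out, and it was lost with total counts, the replicate block, arthropod names alone and only days 0 and 2. miR-276b-3p, a name used in Drosophila species, was scarce, with 4, 76 and 72 counts at day 0 and 26, 5 and 11 at day 2. In CPM these were 8.67, 32.5 and 36.4 and then 11.7, 6.08 and 10.2. Here day 0 replicate 1 lay among the day 2 libraries, and the decrease was called only without it (log2 change -1.79 ± 0.35, edgeR adjusted p = 0.00591, against -1.49 with adjusted p = 0.0781). It may share reads with the far more abundant miR-276-3p, so its value is uncertain.

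**Figure D3:**
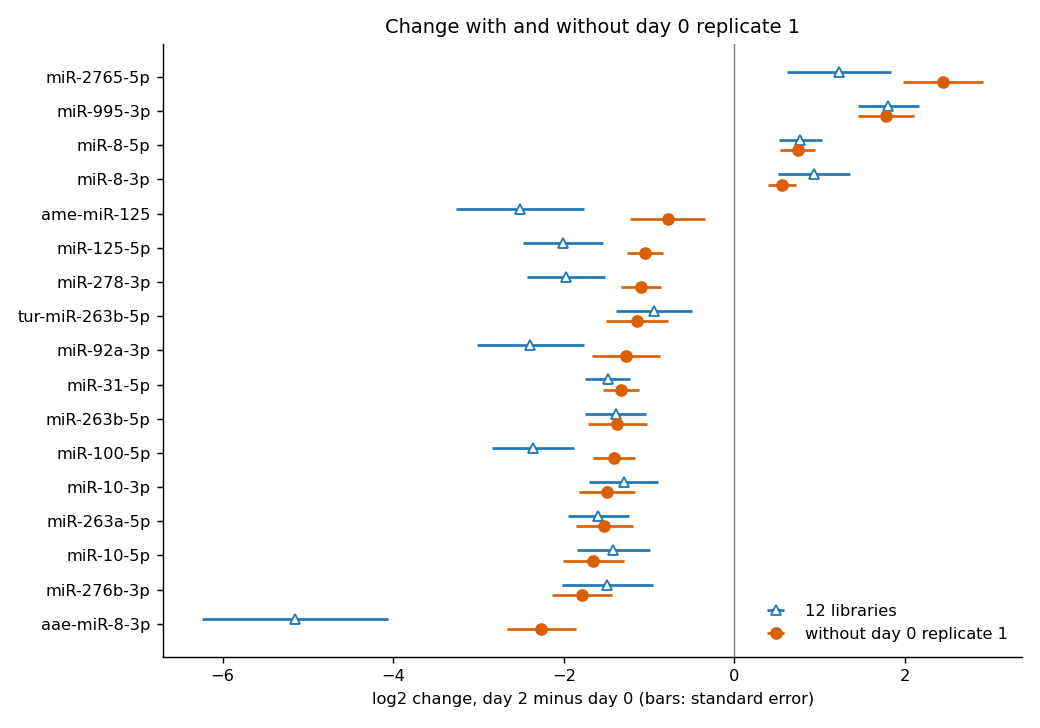
Log2 change from day 0 to day 2 with its standard error for the 17 called miRNAs with an arthropod name, from the fit of all 12 libraries (open triangles) and the fit without day 0 replicate 1 (filled circles). The changes of miR-31-5p, miR-995-3p and both main forms of miR-263 stayed nearly in place, while those of aae-miR-8-3p, miR-100-5p, miR-125-5p and miR-278-3p shrank.

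miR-8 promotes growth through insulin signalling in the fly fat body and acts in the fat body of mosquitoes during egg production. miR-8-3p was the most abundant miRNA, with 8.32%, 36.1% and 27.2% of joined counts in the day 0 libraries and 47.7%, 43.4% and 44.0% at day 2. Every day 2 library exceeded every day 0 library. The mean share was 23.8% ± 14.2 (SD, n = 3) at day 0 and 45.0% ± 2.35 (SD, n = 3) at day 2, a difference of 21.2 percentage points (exact two-sided permutation p = 0.1, the smallest possible). Without day 0 replicate 1 the day 0 mean was 31.6%. In level, miR-8-3p was not called with all libraries, with a log2 difference of 0.94 ± 0.42 (SE; edgeR adjusted p = 0.140), nor in any of 10 other settings of that fit. It was called with day 0 replicate 1 left out, at 0.55 ± 0.17 (SE; edgeR adjusted p = 0.0345), and with day 0 replicate 2 left out instead, at 1.38. Without day 0 replicate 1 the call stood in 3 of 6 other settings and was lost with DESeq2, with only days 0 and 2 and with the replicate block, and also with day 0 replicate 3 (log2 difference 0.33) or day 2 replicate 3 left out as well.

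The 5p arm of miR-8 was much scarcer, with 10494, 11186 and 14625 CPM at day 0 and 27380, 17209 and 17394 CPM at day 2. No day 0 library reached the day 2 range. The log2 difference was 0.77 ± 0.26 (SE; edgeR adjusted p = 0.0597) with all libraries, and miR-8-5p was called in 8 of 11 other settings of that fit. The increase was called without day 0 replicate 1 (0.74 ± 0.20, edgeR adjusted p = 0.0245), and there in 4 of 6 other settings. Relative to the 3p arm the ages overlapped, with a difference of -0.46 on the log2 scale (exact permutation p = 0.7) and 0.14 without day 0 replicate 1.

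A minor form of miR-8-3p that carries names of mosquitoes and other insects but not of the locust, aae-miR-8-3p, went the other way. The joined row that supplied its counts, cte-miR-8, is not an arthropod name. This form had 2074 CPM in day 0 replicate 1, 114 and 99.0 CPM in the other day 0 libraries, and 32.3, 10.9 and 19.5 CPM at day 2. The log2 change was -5.15 ± 1.09 (SE; edgeR adjusted p = 0.0113), and -2.26 ± 0.40 (edgeR adjusted p = 0.00571) without day 0 replicate 1. Its day 2 values rest on 72, 9 and 21 counts. It was the largest called decrease in both fits, and among the names joined in it some are of Lepidoptera.

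**Figure D4:**
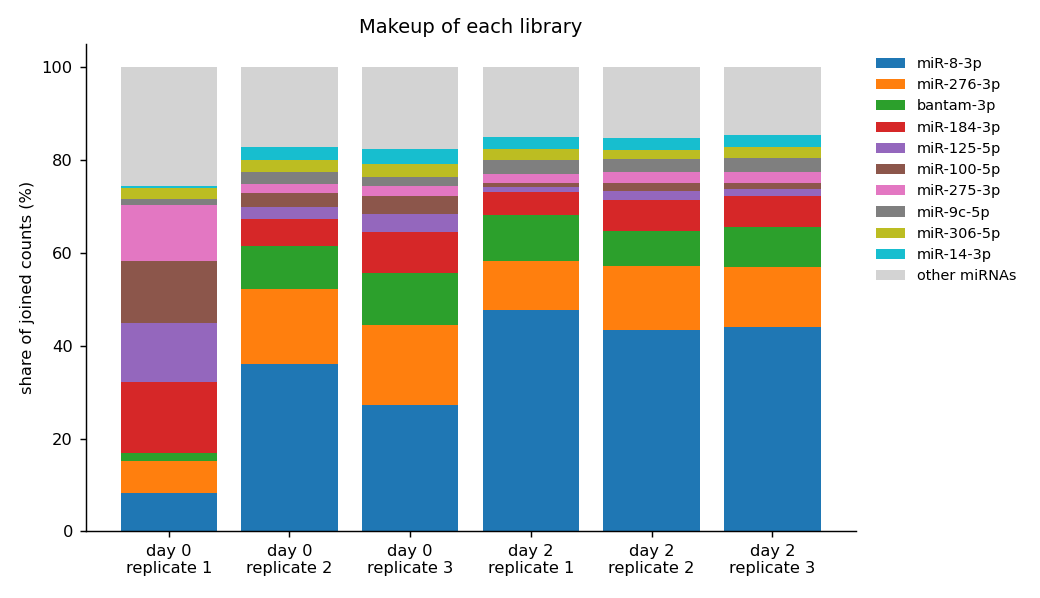
Share of joined counts (%) held by the 10 most abundant miRNAs in each of the 6 libraries, as stacked bars from 0 to 100. miR-8-3p took 43.4% to 47.7% at day 2 and 27.2% and 36.1% in day 0 replicates 2 and 3, and day 0 replicate 1, at 8.32%, held larger shares of miR-184-3p, miR-125-5p, miR-100-5p and miR-275-3p than any other library.

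miR-995-3p, a miRNA counted here under a beetle name alone, rose from 58.5, 64.6 and 77.8 CPM to 217, 242 and 245 CPM. Within each age its 3 libraries were close, and the ages were more than 2-fold apart. The log2 change was 1.80 ± 0.36 (SE; edgeR adjusted p = 0.0107), and 1.78 ± 0.33 (edgeR adjusted p = 0.00583) without day 0 replicate 1. It was the only increase with an arthropod name called with all libraries. miR-2765-5p, a miRNA of insects, was at 399 and 375 CPM in day 0 replicates 2 and 3 and at 1512, 2443 and 2150 CPM at day 2, while day 0 replicate 1 was at 1846 CPM, within the day 2 range. It was called only without that library (log2 change 2.45 ± 0.47, edgeR adjusted p = 0.00591, against 1.22 with adjusted p = 0.182).

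Of the 4 increases called with all libraries, 3 were of scarce sequences with no arthropod name. efu-miR-9341, named in a bat, had 11, 15 and 23 counts at day 0 and 94, 58 and 86 at day 2, a log2 change of 2.30 ± 0.61 (SE; edgeR adjusted p = 0.0222). aca-miR-1a-3p, a vertebrate form of miR-1 under a lizard name, had 0, 6 and 8 counts and then 20, 53 and 30. Its 0 counts in day 0 replicate 1 allow up to 7.80 CPM before scaling, and the day 2 libraries ranged from 8.97 to 64.4 CPM, with a log2 change of 3.57 ± 0.93 (SE; edgeR adjusted p = 0.0221). pmi-miR-252a-5p, a minor form of miR-252 under a starfish name, had 1, 14 and 8 counts and then 29, 10 and 17, or 2.17 to 5.99 CPM and then 12.2 to 15.8 CPM (edgeR adjusted p = 0.0499). These 3 were also called in the fit of 11 libraries, with log2 changes of 2.89, 3.36 and 1.46. cgr-miR-378-3p, a vertebrate miRNA, was called only without that library and had 7, 0 and 1 counts at day 0 and 22, 72 and 17 at day 2, too few at day 0 for a fold. mmu-miR-466i-5p, a mouse name, had 66, 34 and 51 counts and then 104, 62 and 108, and was called only without that library (log2 change 1.94 ± 0.47, edgeR adjusted p = 0.0117). Whether any of these 5 sequences come from the locust was not tested.

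The other 7 of the 10 most abundant miRNAs did not pass the test in either fit. miR-276-3p, which acts in the even hatching of locust eggs, was at 56329, 150488 and 161302 CPM at day 0 and 108665, 116427 and 119102 CPM at day 2. The day 2 libraries lay below day 0 replicates 2 and 3 but above replicate 1, and the log2 difference was -0.39 (edgeR adjusted p = 0.0844) without the latter and -0.10 (edgeR adjusted p = 0.856) with it. bantam-3p, a driver of tissue growth in flies, had 15315, 85495 and 106105 CPM at day 0 and 102436, 65209 and 78309 CPM at day 2. Its log2 difference was 0.25 with all libraries and -0.17 without day 0 replicate 1. miR-184-3p, needed in the female germ line of flies, had 126404, 54938 and 83448 CPM and then 49820, 56448 and 62047 CPM. Its log2 difference was -0.65 (edgeR adjusted p = 0.131) with all libraries and -0.23 (edgeR adjusted p = 0.328) without day 0 replicate 1. For these 3 the ages overlapped and day 0 replicate 1 was the lowest or highest library of day 0.

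miR-275-3p, needed for blood digestion and egg growth in mosquitoes, turned on day 0 replicate 1. It was at 99628 CPM there, at 19515 and 19534 CPM in the other day 0 libraries and at 21089, 20954 and 21499 CPM at day 2. The log2 difference was -1.13 (edgeR adjusted p = 0.150) with that library and 0.17 (edgeR adjusted p = 0.409) without it. miR-14-3p, which limits fat stores and cell death in flies, was at 3283 CPM in that library, at 27046 and 31352 CPM in the other day 0 libraries and at 25728, 21399 and 23646 CPM at day 2. Its log2 difference was 0.20 with that library and -0.25 without it. miR-9c-5p was not called, with a log2 difference of 0.65 (edgeR adjusted p = 0.117) and of 0.45 (edgeR adjusted p = 0.0565) without day 0 replicate 1, although its 11152, 22600 and 18887 CPM at day 0 all lay below its 31076, 24545 and 26707 CPM at day 2. miR-306-5p differed by -0.15 and -0.19 on the log2 scale and overlapped.

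Both arms of miR-276 were measured well enough to compare. The log2 ratio of miR-276-5p to miR-276-3p was -7.12, -7.07 and -7.38 at day 0 and -5.98, -6.27 and -5.96 at day 2. The scarce 5p arm thus made up more of the pair in every day 2 library, by about 2 times on average, and day 0 replicate 1 lay with the other day 0 libraries. The difference was 1.12 on the log2 scale and 1.16 without that library, with an exact two-sided permutation p of 0.1 in both cases, the smallest possible, and 0.3 after adjustment over the 3 ratios of arms. The level of miR-276-5p itself was 405, 1121 and 970 CPM at day 0 and 1722, 1510 and 1920 CPM at day 2. It was not called with all libraries (log2 difference 1.04, edgeR adjusted p = 0.242) or without day 0 replicate 1 (0.76, edgeR adjusted p = 0.471). Without that library it was called higher in 1 of 6 other settings, that with only days 0 and 2. The other ages share in the spread of the main test, and the day 6 libraries of miR-276-5p were at 1683, 1537 and 183 CPM. Their part in the missing call was not tested.

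Of the other listed genomic clusters of insect miRNAs, beyond the let-7 complex and the Hox list with miR-10, 5 had no called member in either fit. These were 5 measured forms of the cluster of miR-9 with miR-79 and miR-306 (median log2 differences -0.15 and -0.19), 5 of the cluster that holds miR-71 beside miR-2 and miR-13 (0.11 and -0.18), 2 of the cluster of miR-275 and miR-305 (-0.62 and 0.04), 3 of the cluster with miR-34, miR-277 and miR-317 (-0.41 and -0.05) and miR-12-5p (1.03 and 0.55). Of the miR-277 cluster miR-34-5p, which acts in ageing of flies, had 8921 CPM in day 0 replicate 1, 1303 and 1873 CPM in the other day 0 libraries and 1168, 1151 and 1443 CPM at day 2. Its log2 difference was -1.68 (edgeR adjusted p = 0.0836) with all libraries and -0.28 (edgeR adjusted p = 0.626) without day 0 replicate 1. Of the list for locust phase traits, with miR-276, miR-9a and miR-133, 0 of 5 forms were called in either fit, and the lowest p was that of lmi-miR-9a-3p (log2 differences -0.88 and -0.82). Of the fly metabolism list 2 of 8 forms were lower with all libraries, aae-miR-8-3p and miR-278-3p, beside 12.2% lower over all miRNAs tested. Without day 0 replicate 1 the same 2 were lower (13.2% over all) and both arms of miR-8 higher (9.89% over all). Its median log2 differences were 0.20 and 0.03, against -0.07 and -0.04 over all miRNAs tested. On that list miR-33-5p, made from an intron of the sterol regulator gene SREBP in flies and tied to lipid use, was at 73.7, 106 and 108 CPM at day 0 and 378, 287 and 377 CPM at day 2. All day 2 libraries were above all day 0 libraries, but miR-33-5p was not called, with log2 differences of 1.85 (edgeR adjusted p = 0.0836) and 1.75 (edgeR adjusted p = 0.165). The spread in that test is taken over all ages, and the day 6 libraries of miR-33-5p were at 968, 918 and 68.2 CPM. Their part in the missing call was not tested. Of the list for egg production in mosquitoes, 1 of 5 forms was lower with all libraries, and 1 lower and 2 higher without day 0 replicate 1, all of them forms of miR-8. With all libraries that count is close to the 16.7% called over all miRNAs tested, and without day 0 replicate 1 the share over all was 23.1%. Of the growth and survival list, with bantam, miR-14 and miR-31, miR-31-5p was the only called form of 4 in each fit, again near the share over all.

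The listed miRNAs of other tissues with an arthropod name and enough counts for a test did not pass it in either fit. The vertebrate form of miR-1 given above, aca-miR-1a-3p, is outside these lists and was called higher in both. miR-1-3p, the defining miRNA of muscle, was at 180, 3269 and 1765 CPM at day 0 and 476, 934 and 676 CPM at day 2, with log2 differences of -1.32 (edgeR adjusted p = 0.285) and -1.82 (edgeR adjusted p = 0.0915). Its day 2 libraries were all below day 0 replicates 2 and 3, and of 6 other settings of the fit of 11 libraries DESeq2 and the fit of days 0 and 2 alone called it lower. miR-7-5p, the 1 tested of 3 on the nerve cell list, was at 505 to 646 CPM at day 0 and 543 to 740 CPM at day 2, and miR-281-5p at 55.6 to 537 CPM and 70.6 to 435 CPM.

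**Figure D5:**
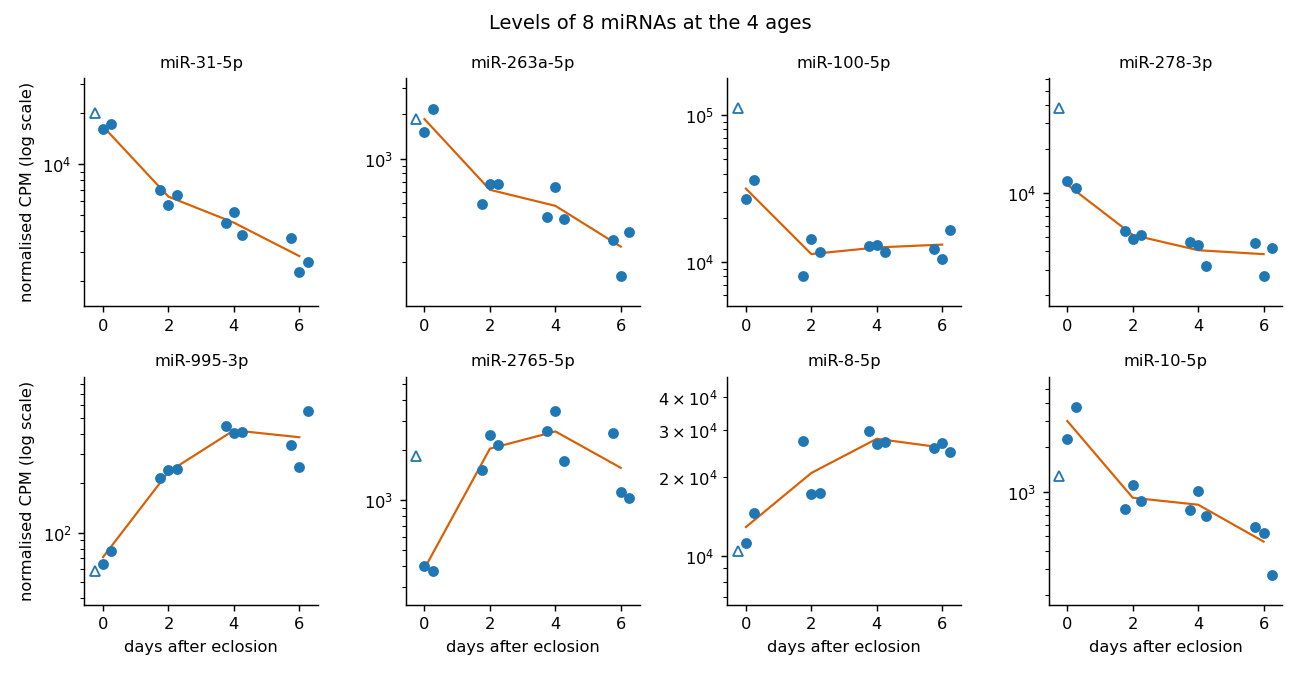
Normalised CPM (log axes that differ between panels) against days after eclosion for 8 of the called miRNAs, with a point for each of the 12 libraries. Open triangles are day 0 replicate 1, and lines join the means of each age without it. All day 6 points of miR-31-5p and miR-263a-5p lie below those of day 2, while miR-100-5p at days 4 and 6 lay near its day 2 level.

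Whether the level at day 2 was the last one was read from the later ages, in comparisons that share the day 2 libraries with the one above. With all libraries edgeR called 0 of 90 miRNAs (0.0%) between days 2 and 4 and 0 (0.0%) between days 2 and 6, with 5 and 14 at an unadjusted p below 0.05. DESeq2 called 1 and 4, all lower. Without day 0 replicate 1, 2 of 91 were lower at day 4 than at day 2 (2.2%), neither of them called between days 0 and 2. At day 6, 6 were lower (6.59%) and 4 higher (4.4%), and 5 of these 10 had been called at day 2, each in the same direction. Over all 91 tested, 23.1% had been called between days 0 and 2 in this fit. miR-31-5p fell further, with a log2 change from day 2 to day 6 of -1.19 ± 0.19 (SE; edgeR adjusted p = 0.00876). So did miR-263a-5p (-1.30), the main form of miR-263b (-1.33) and miR-10-3p (-1.29), and miR-8-3p rose further (0.70). miR-100-5p and miR-125-5p differed by 0.18 ± 0.22 and -0.10 ± 0.19 (SE) between days 2 and 6 and were not called, and neither were miR-278-3p (-0.46 ± 0.21) and miR-995-3p (0.67 ± 0.27).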

How the data were processed

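Small RNA was sequenced from fat body at 4 ages with 3 libraries each. RNA was extracted with TRIzol, per the labels' protocols. The deposited values are raw counts for each mature miRNA name, 26711 names with 115 species prefixes. No source used here names the aligner, the mismatches allowed or the miRNA release. Groups come from titles, and columns were matched through the descriptions of the samples; 0 columns belong to other samples.

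Counts were found under 5500 names, in 884 distinct profiles. Of all names, with or without counts, 14 are of the locust, and 12 of these are in the joined groups. In a first step, rows with at least 120 counts (1513) were joined if in every library they agreed within 25% plus 5 counts (same miRNA number) or within 5% plus 3 counts (another number), which gave 154 groups. In a second step a group joined a larger group of its number, arm and letter if its share of that group was steady, varying by a factor of at most 1.5 or 2.5 counting SDs in all libraries but 1, which gave 101. The most abundant row supplies the counts of a group. Reads shared by paralogues can still be split or merged, which makes minor forms uncertain.

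Age was a factor in glmQLFit and glmQLFTest of edgeR 4.0.16 (limma 3.58.1, R 4.3.3), after filterByExpr with a minimum count of 10 and TMM scaling, once with 12 and once with 11 libraries. The SE of a log2 change is its size over the square root of F. Ratios and shares were tested by exact permutation (Python 3.11.15, SciPy 1.17.1, pandas 2.3.3, NumPy 2.4.6); figures used matplotlib 3.10.9. Alternatives tried were DESeq2 1.42.0, RLE factors, total counts, no filter, the replicate block, only days 0 and 2, each library left out, names of arthropods alone, the first joining step, all rows, summed profiles and leaving out the most abundant miRNA. The comparison of day 2 with day 0 was simulated 20 times, changing 30 of 90 miRNAs; the test called 17% of those changed 2-fold, 70.5% of those changed 4-fold and 96% of those changed 8-fold, with a false share of 4.68%; no simulated library stood apart.

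Named miRNAs were those called in either fit, the 10 most abundant, the member of each list with the lowest p, and both arms where each had 100 counts in every one of the 6 libraries. let-7-5p with its ratios, which were not tested, and miR-33-5p were added after their values were seen. The comparison and the lists were chosen with earlier results of these data known. Floors (3 counts) cover counting error only.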

Additional observations from a re-analysis of the deposited data

Results flagged for a closer look

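Day 0 replicate 1 held 1919 counts of miRNA numbers named for moths and butterflies alone, in a locust library of 384575 joined counts. The other 11 libraries held between 0 and 10 such counts, which makes this a signal in rows that no comparison uses. The most abundant were mse-miR-2763 with 598 counts, bmo-miR-3338-3p with 547 and bmo-miR-2766-3p with 399, all at 0 in the other 11 libraries. Lepidopteran forms of shared miRNAs showed the same pattern, with 731 counts of bmo-miR-279b-3p and 616 of bmo-miR-31-5p in that library. What share of the counts under shared names in that library has the same source was not tested.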

How the results depend on the processing

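With all libraries the count of 4 higher became 8 with DESeq2, 0 with only days 0 and 2, 2 with arthropod names alone and 85 with all rows, and ranged from 0 to 9 with a library left out. The count of 11 lower became 6 with no filter, 0 with only days 0 and 2, 197 with all rows and 7 with summed profiles, and ranged from 0 to 19 with a library left out. With only days 0 and 2 the lowest edgeR adjusted p was 0.0548, with 18 at an unadjusted p below 0.05. In the fit without day 0 replicate 1, 9 higher became 5 with arthropod names alone, and both counts stayed within 1.5 times under RLE factors, total counts, DESeq2 and only days 0 and 2. With a further library left out, which can leave day 0 with 1 library assumed to vary like the other ages, they ranged from 2 to 10 higher and from 5 to 11 lower. The replicate block gave 3 higher and 7 lower with all libraries, and 7 and 10 without day 0 replicate 1. Same-numbered libraries of the 2 ages correlated at -0.167, -0.173 and 0.237 in their deviations from the age means. Of 6 libraries 2 correlated best with their own number. The day 0 means include day 0 replicate 1, so these values cannot tell whether the numbers pair the libraries. For the later steps without day 0 replicate 1, DESeq2 called 1 higher and 3 lower from day 2 to day 4, and 7 and 8 from day 2 to day 6.

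No miRNA called in a fit changed sign under an alternative to that fit. The difference in the miR-8 ratio of arms, -0.46, ranged from -0.95 to 0.14 with a library left out, the last without day 0 replicate 1. Uncalled log2 differences changed sign as follows, and the cause was not tested. That of miR-276-3p was 0.0017 with no filter, 0.054 with arthropod names alone, 0.048 with the first joining step, 0.20 with all rows and 0.16 with summed profiles, and -0.39 to 0.15 with a library left out. That of miR-306-5p was 0.0031 with the first joining step, 0.20 with all rows and 0.15 with summed profiles, and -0.28 to 0.0013 with a library left out. With a library left out the range was -0.17 to 0.70 for bantam-3p, -0.25 to 0.64 for miR-14-3p, -1.49 to 0.17 for miR-275-3p, -0.15 to 1.94 for mmu-miR-466i-5p and -0.071 to 0.22 for miR-7-5p. Beyond day 0 replicate 1 it was -0.57 to 0.030 for miR-184-3p and -1.06 to 2.21 for miR-281-5p, which was at 0.38 with the replicate block. DESeq2 gave no adjusted p for miR-275-3p and aae-miR-8-3p with all libraries.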
